A study of Homo sapiens with 6 samples.

Results

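The neurotrophin system was described here through 6 listed genes, the receptors NGFR, NTRK2 and NTRK3, the ligands BDNF and NTF3, and the sorting receptor SORT1. All 6 are among the 18249 genes of the expression table, and 4 of them passed a filter on low values (at least 1 in at least 1 library) that 12375 genes passed. The genes were selected on their part in neurotrophin signalling with earlier results of these data known, and NGFR was chosen by its expression values, which were lower in both knockdown libraries, and as a marker of basal esophageal cells. Expression of the 6 genes in the knockdown comparison is therefore given as a description, with no test.

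The samples are TE-10, a human esophageal squamous carcinoma line grown in serum. RNA-seq was made from 1 control library with normal METTL3 and from 2 libraries with stable knockdown of METTL3 by short hairpin RNA, numbered 1 and 2 in the sample titles and called hairpin 1 and hairpin 2 below. METTL3 is the enzyme that places N6-methyladenosine (m6A) on messenger RNA. Sites of m6A were mapped in TE-10 cells with normal METTL3 by antibody capture of methylated RNA, with 1 input and 2 immunoprecipitated libraries that differ in antibody catalogue number. The labels do not say what the control cells carried in place of the hairpins, or whether libraries came from separate cultures. Any spread between libraries may thus be technical in whole or in part. Between the 2 knockdown libraries it can also hold differences between the hairpins, and these parts cannot be told apart.

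Neurotrophins are secreted growth factors made as precursors and cut to mature dimers. Each mature factor binds a Trk receptor tyrosine kinase, and all of them, with their precursors, bind NGFR (p75NTR), a receptor of the TNF receptor superfamily with a cytoplasmic death domain. Sortilin, the product of SORT1, joins NGFR in binding precursors and sorts them inside the cell. The system is best known from the nervous system, and in stratified epithelia NGFR is found on basal keratinocytes.

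METTL3 itself was at 20.81 in the control, 8.35 with hairpin 1 and 4.99 with hairpin 2. The hairpin 2 library stood apart from the other libraries: there CDKN2A, a brake on the cell cycle, reached 144.68 (0.04 in the control and 0.00 with hairpin 1), and the homeobox gene HOXB9 reached 53.12 (0.03 and 0.35). At least 2-fold differences from the control on the log2(value + 1) scale numbered 80 with hairpin 1 and 571 with hairpin 2. Every value below is therefore given for each library, and hairpin 1 alone serves as the comparison without the library that stood apart. The table does not state the unit of its values, and scaling by gene length is not known, so levels are compared between libraries and not between genes. Sequencing depth is unknown and no counting interval is given.

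NGFR was lower in both knockdown libraries by nearly the same amount. Its expression value was 43.61 in the control, 18.25 with hairpin 1 and 18.72 with hairpin 2. The control lay 2.39-fold above hairpin 1 and 2.33-fold above hairpin 2, and the knockdown libraries averaged 18.48 ± 0.33 (SD, n = 2). On the log2(value + 1) scale the differences from the control were -1.21 and -1.18. The hairpin libraries differed from each other by 0.03 on that scale, where the median absolute difference over all genes tested was 0.245 and 931 of 12375 genes differed by less. Both differences from the control were taken from the same 1 control library. The closeness of the hairpin libraries therefore does not show how precise the difference from the control is. Among all genes tested, 8, NGFR included, were at least as low as NGFR in both libraries. On the log2(value + 1) scale 12 genes, or 0.097% of those tested, were at least 2-fold lower in both, and NGFR is one of them by the way it was chosen. With a pseudocount of 0.1 in place of 1 they numbered 35.

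NTRK2, which encodes TrkB, the kinase receptor of BDNF and neurotrophin 4, was also lower in both. It was at 10.27 in the control, 6.34 with hairpin 1 and 5.30 with hairpin 2. The control was 1.62-fold and 1.94-fold above these libraries, and the log2 differences were -0.62 and -0.84. In all, 47 tested genes, NTRK2 included, were at least as low as NTRK2 in both libraries. The hairpin libraries averaged 5.82 ± 0.74 (SD, n = 2). With 1 library per hairpin and 1 control library, this SD cannot show how precise the difference from the control is. NTRK2 has transcripts with and without the kinase domain, and a value per gene does not separate them.

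NTRK3 and NTF3, a receptor and its ligand, stayed under 1 in every library and did not pass the filter. NTRK3, the gene of TrkC, was listed at 0.03 in the control, 0.13 with hairpin 1 and 0.06 with hairpin 2. NTF3, which encodes neurotrophin 3, the preferred ligand of TrkC, was at 0.28, 0.65 and 0.67. Both knockdown libraries were above the control for NTF3, and the log2 differences were 0.37 and 0.38 at values too low for their precision to be judged.

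BDNF and SORT1 had no common direction. BDNF, which encodes brain-derived neurotrophic factor, was at 1.15 in the control, 1.20 with hairpin 1 and 0.80 with hairpin 2. SORT1 was at 8.74, 10.90 and 8.52, so that it was highest with hairpin 1 and the control and hairpin 2 lay close together. Their log2 differences were 0.03 and -0.26 for BDNF and 0.29 and -0.03 for SORT1. For both genes the hairpin libraries lay farther from each other than their mean lay from the control.

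Counted over the list, 2 of 6 genes were lower in both libraries, 2 were higher in both and 2 were split. Of the 4 that passed the filter, 2 were lower and 0 higher in both. NGFR was chosen for being lower in both libraries, so these counts are descriptions. Over all genes tested, 30.4% were lower in both and 28% higher in both. With NTRK3 and NTF3 included, which did not pass the filter, the 6 genes had a median log2 difference of 0.08 with hairpin 1 and -0.14 with hairpin 2. The medians over all genes tested were -0.01 and 0.00, but that set holds only genes that passed the filter. The 4 that passed, NGFR, NTRK2, BDNF and SORT1, were at -1.21, -0.62, 0.03 and 0.29 with hairpin 1. With hairpin 2 they were at -1.18, -0.84, -0.26 and -0.03.

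**Figure D1:**
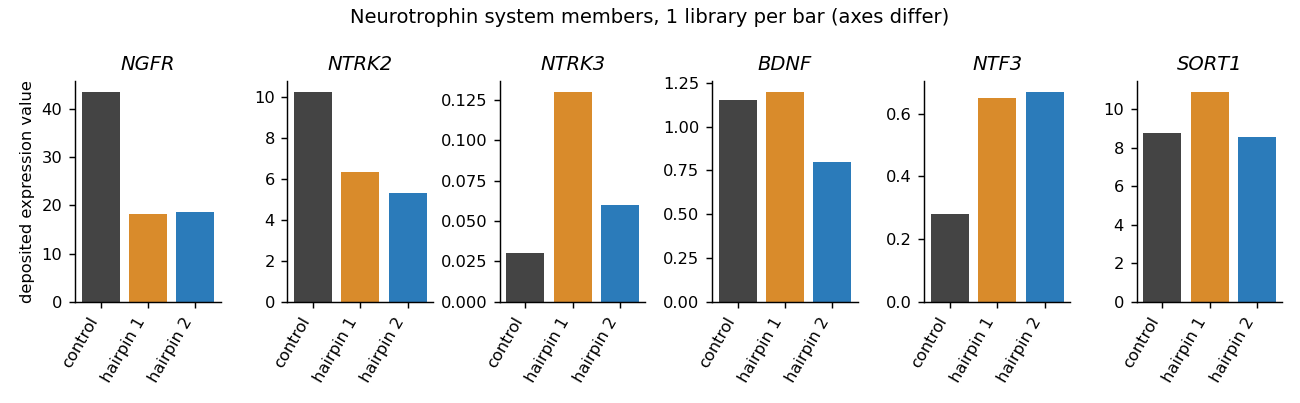
Deposited expression values (y axis, unit not stated, scale differs between panels) of the 6 genes in the control, hairpin 1 and hairpin 2 libraries, 1 library per bar. NGFR and NTRK2 are lower in both knockdown libraries, NTRK3 and NTF3 stay under 1, and BDNF and SORT1 are split.

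The pattern of NGFR was next compared with that of other genes. Likeness was the distance between the pairs of log2 differences, over the 3 RNA-seq libraries, among 6144 other genes with a control value of at least 10. The nearest gene was PI3, which encodes the protease inhibitor elafin of squamous epithelium, at 242.85 in the control, 106.17 with hairpin 1 and 108.78 with hairpin 2 (distance 0.037). PGF, a growth factor of the VEGF family, followed at 12.31, 4.84 and 5.03 (distance 0.043). The interferon-induced IFI6 (70.91, 25.60 and 30.26), the lysosomal glycoprotein gene CD68 (18.81, 7.88 and 9.93) and the small GTPase gene RAC2 (26.31, 11.24 and 14.14) lay farther off, at distances of 0.224, 0.325 and 0.331. With 3 libraries such a match is a description of these values.

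Since NGFR is a basal marker, its values were set beside those of a list of 20 basal squamous genes. In this list 13 genes lay below the control in both libraries and 0 above it, and the median log2 differences were -0.22 with hairpin 1 and -0.71 with hairpin 2. Over all genes tested, 30.4% were lower and 28% higher in both. The highest of the list were the keratin gene KRT17 (1171.05, 1177.90 and 749.17) and the calcium-binding S100A2 (1127.92, 1058.34 and 703.50). KRT5 was at 633.07, 779.09 and 429.18, and TP63, the master regulator of the basal state, at 31.89, 23.54 and 19.50. The last 2 were picked after their values were seen. On the log2(value + 1) scale ITGB1, an integrin subunit, was the only gene of the list at least 1.5-fold lower in both (301.05, 176.87 and 149.23). In a bulk sample, fewer basal-like cells and less NGFR RNA per cell cannot be told apart.

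Markers of other cell types were read next. Of 8 neural crest and Schwann cell markers, 6 were under 1 in every library, with S100B and CDH19 at 0 and SOX10 reaching 0.07. In the control, hairpin 1 and hairpin 2, ERBB3 was at 13.78, 14.35 and 11.48. FOXD3 was at 1.14, 1.65 and 2.33, higher in both knockdown libraries. The summed value, mostly ERBB3, was 15, 16.1 and 14.3. Of 8 fibroblast markers, 7 were under 1 in every library, and the sums were 3.62, 3.99 and 3.82. The 9 neuronal markers in the table summed to 48.7, 47.7 and 41.7, mostly TUBB3 (45.10, 44.39 and 29.36). SYT1 was at 3.44, 3.13 and 1.87. Within the neuronal list NEFL (0.00, 0.01 and 4.40), STMN2 (0.00, 0.00 and 2.84) and NEFM (0.00, 0.00 and 1.91) were detected with hairpin 2 alone apart from 0.01 of NEFL with hairpin 1. The 9 kidney and HeLa-type markers summed to 13.9, 16.8 and 245. With hairpin 2, CDKN2A gave 144.68 of that sum, HOXB9 53.12 and IRS4 23.56. The list did not rise as a whole. HOXD13 was at 6.38, 7.64 and 16.07, while PAX8 (4.11, 3.51 and 3.66) and GATA3 (3.30, 5.23 and 2.32) were below the control with hairpin 2. The other 3 were under 1 in every library. NGFR was at 18.25 with hairpin 1 and at 18.72 with hairpin 2, and any relation of these markers to NGFR was not tested.

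**Figure D2:**
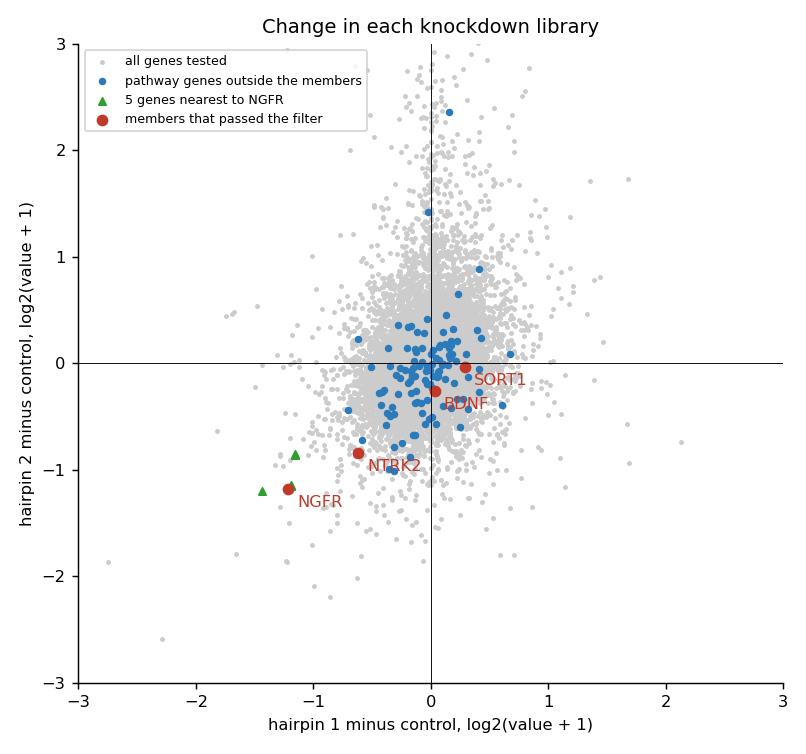
Difference from the control on the log2(value + 1) scale with hairpin 1 (x axis) and hairpin 2 (y axis) for all genes tested (grey), pathway genes (blue), the 5 genes nearest to NGFR (green) and the 4 members that passed the filter (red); 20 genes lie outside the axes. NGFR at -1.21 and -1.18 and NTRK2 at -0.62 and -0.84 lie in the lower left quadrant, and BDNF and SORT1 near the centre.

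Of the 10 remaining ligands and receptors in the table, 4 were under 1 in every library and 6 were tested. Of these 6, 2 were lower and 1, LINGO1, higher in both libraries. Over all genes tested, 30.4% were lower and 28% higher in both. NTF4, the second TrkB ligand, was at 6.13, 6.65 and 4.40 in the control, hairpin 1 and hairpin 2. KIDINS220, a scaffold of Trk receptors, was at 3.80, 3.34 and 3.88. Of the sortilin relatives, SORL1 was at 6.03, 6.07 and 3.97, SORCS1 at 0.00, 0.00 and 0.26, and SORCS2 at 0.01, 0.02 and 0.02. NGFR also forms a complex with the Nogo receptor RTN4R and with LINGO1. RTN4R was at 24.23, 18.87 and 16.92, lower in both libraries, while LINGO1 was at 0.25, 0.39 and 5.43, high in hairpin 2 alone. APP, the amyloid precursor, whose cleaved peptide binds NGFR, was at 121.24, 91.80 and 101.56, also lower in both.

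A limma fit of both hairpin libraries against the control covered all 12375 genes, and a list of 143 pathway genes outside the 6 was read from it. No gene passed an adjusted p of 0.05 (0%), while 162 genes lay under 0.05 before adjustment. Of the 115 pathway genes tested, 0 passed in either direction and 1 lay under 0.05 before adjustment. That gene was PIK3CA, a catalytic subunit of PI3-kinase, at 13.04, 8.34 and 7.55 (limma log2 difference of -0.65, SE 0.24, adjusted p = 1, lower in 2 of 2 hairpin libraries). On the log2(value + 1) scale it was also the only tested pathway gene at least 1.5-fold lower in both libraries, and 0 were at least 1.5-fold higher in both. Of all genes tested, 0.752% were that much lower and 0.525% that much higher on this scale. It understates low genes: RPS6KA2, a kinase downstream of ERK (0.39, 0.85 and 1.57), and SHC2, an adaptor (0.39, 0.63 and 1.18), both chosen after their values were seen, were higher by that fold in both libraries as plain ratios only. With 1 control library the spread came from the hairpin libraries alone, on 1 residual degree of freedom, so the absence of calls does not show that these genes were unchanged.

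Of 8 proneurotrophin processing enzymes tested, 4 were lower and 0 higher in both libraries, beside 30.4% lower and 28% higher over all genes tested. The median log2 differences were -0.05 and -0.36. FURIN, a convertase that cuts neurotrophin precursors, was at 65.68, 55.38 and 38.76. PLAU, which activates plasminogen, was at 28.63, 22.87 and 13.68. PLAT, the tissue-type activator, chosen after its values were seen, was at 13.99, 8.21 and 10.06.

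Genes of NGFR cleavage and death domain signalling showed no common direction. Of 40 tested, 11 were lower and 14 higher in both, beside 30.4% lower and 28% higher over all genes tested. The medians were 0.05 and 0.00. ARHGDIA, which encodes an inhibitor of small GTPases, was at 437.19, 500.72 and 383.64, and RHOA at 307.29, 349.83 and 385.56. ADAM17, the sheddase of NGFR, was at 10.76, 10.00 and 10.57. BEX3, an NGFR-binding protein gene, was at 242.67, 202.72 and 235.91. The last 2 were chosen after their values were seen.

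Of 47 tested Trk signalling genes, 24 were lower and 10 higher in both, beside 30.4% lower and 28% higher over all genes tested. The medians were -0.04 and -0.07, and 0 of these genes passed limma's test. AKT1 was at 253.86, 231.84 and 195.70, and MAP2K2, a kinase of the ERK cascade, at 138.71, 149.21 and 170.41. SHC1, the adaptor that binds the activated receptors, chosen after its values were seen, was at 159.57, 124.73 and 79.71, lowest with hairpin 2.

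Other receptors of the TNF receptor superfamily were lower in both libraries in 8 of 14 tested cases and higher in 1, FAS (2.03, 2.97 and 2.76). Their medians were -0.13 and -0.18. LTBR was at 141.31, 130.17 and 110.02, and TNFRSF12A at 196.33, 220.92 and 146.71. Over the 5 lists together, 49 of 115 genes lay below the control in both libraries and 26 above it, and the medians were -0.03 and -0.07. Beside these counts and those of the TNF receptor list, 30.4% of all genes tested were lower and 28% higher in both. The lists were drawn up with earlier results known, and these counts are descriptions.

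**Figure D3:**
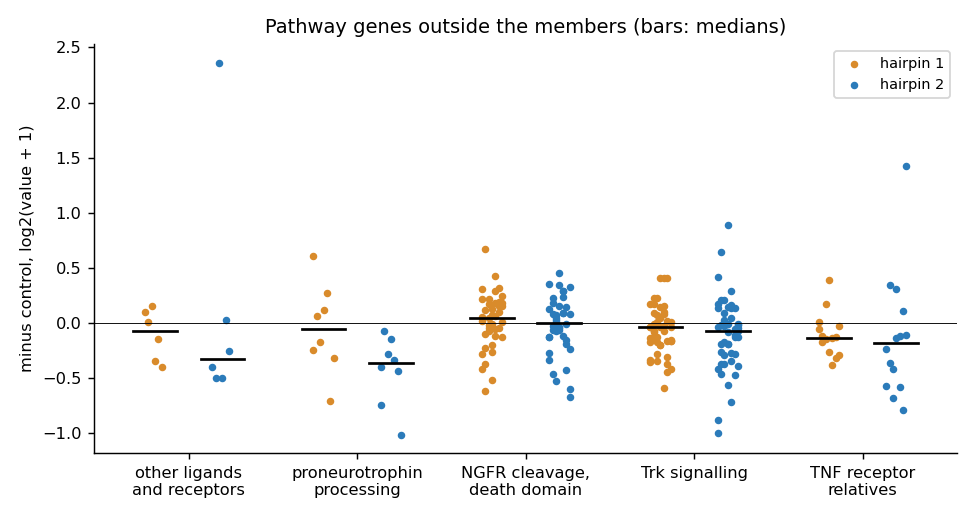
Difference from the control on the log2(value + 1) scale (y axis) of each tested pathway gene outside the 6 listed genes, by list (x axis), with hairpin 1 in orange and hairpin 2 in blue; black bars are medians. The medians lie between -0.36 and 0.05, and LINGO1 and EDA2R stand high with hairpin 2 alone.

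The m6A map was made without the knockdown libraries, but the 6 genes were listed with earlier results of these data known. The count of members with a peak is therefore a description. It lists 15940 peaks, of which 7 were assigned to 5 of the 6 genes, and 6 of the 7 lie in exons or untranslated regions (UTRs). Of the genes in the expression table, 42.5% had at least 1 peak. The list has no score and does not say how the 2 immunoprecipitations were combined, so peaks could not be compared in strength or between libraries.

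NGFR carried 3 peaks, at both ends of its transcript. The first, at chr17:47572582-47572799 on the + strand (218 bases), is classed as 5′ UTR, is centred 36 bases from the annotated start and begins 72 bases before it. The other 2 are classed as 3′ UTR, at chr17:47589977-47590933 (957 bases) and chr17:47591238-47592007 (770 bases), with 304 bases between them. Both are long: they exceed 95.7% and 91.9% of all peaks, whose median length was 316 bases. At least 3 peaks were found in 8.33% of genes of the table. A 5′ UTR peak together with at least 2 peaks in the 3′ UTR was found in 46 of the 8906 genes with a peak (0.517%). Both criteria match the peaks of NGFR itself, which meets them by construction, so these shares are descriptions.

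The other members had 1 peak each or none. NTRK2 had a 5′ UTR peak at chr9:87285386-87285723 (+ strand, 338 bases), 2089 bases from the annotated start. BDNF had a peak in a coding exon at chr11:27679422-27680159 (- strand, 738 bases), 63815 bases from the start, and NTF3 likewise at chr12:5603476-5604161 (+ strand, 686 bases), 62539 bases from the start. The antisense gene BDNF-AS overlaps BDNF, and the list does not say whether strand was used. NTRK3 had an intronic peak at chr15:88521531-88521886 (- strand, 356 bases), 278254 bases from the start. SORT1 had none.

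BDNF and NTF3 thus shared the class of their peak, and both genes hold their coding sequence in or near the last exon. Among the other ligands and receptors, NTF4 had an intronic peak of 581 bases at chr19:49564462-49565042. RTN4R had a coding-exon peak of 1411 bases at chr22:20229033-20230443, longer than 99.1% of all peaks. LINGO1 had a 3′ UTR peak (292 bases) and KIDINS220 an intronic one (462 bases), while APP, SORL1, SORCS1 and SORCS2 had none.

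**Figure D4:**
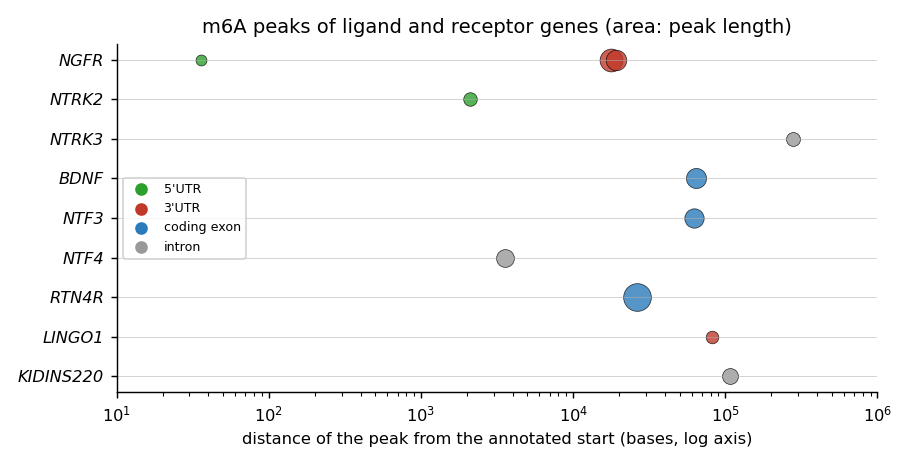
Distance of each m6A peak from the annotated start (x axis, bases, log axis) for 9 ligand and receptor genes with a peak; colour gives the location class and point area the peak length. NGFR has peaks at 36 bases and near the 3′ end, and BDNF and NTF3 have coding-exon peaks 63815 and 62539 bases away.

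Peaks were found in members whose expression values were close to 0. In the control, NTRK3 was at 0.03 and NTF3 at 0.28, both with a peak, whereas 15.1% of genes with a control value under 1 had one. Of the 2 members from 1 to under 10, BDNF had a peak and SORT1 had none, and the share over all such genes was 61%. Both members of at least 10, NGFR and NTRK2, had a peak, where 55.3% of such genes did. With 2 genes in each class these counts do not set the members apart from the background. Expression and peaks come from different libraries.

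Over the 140 pathway genes in the table, 55% had a peak, against 42.5% of all genes of the table. Of the 115 pathway genes that passed the filter, 72 had one, against 56.6% of all genes tested. Differences between lists were not tested. A peak was present in 33 of 50 Trk signalling genes (66%), in 20 of 41 NGFR cleavage and death domain genes (48.8%), in 8 of the 12 processing genes in the table (66.7%) in 11 of the 27 TNF receptor relatives in the table (40.7%) and in 5 of the 10 other ligands and receptors in the table (50%). None of the 4 VPS10 domain receptors in the table, SORT1 among them, had one. The most peaks were found in IRS2 (8), IRS1 (6) and SQSTM1 (6), chosen after their counts were seen. IRS1 and IRS2 encode docking proteins of receptor kinase signalling and SQSTM1 encodes p62, a partner of TRAF6 at NGFR. PIK3CA had 2 peaks.

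**Figure D5:**
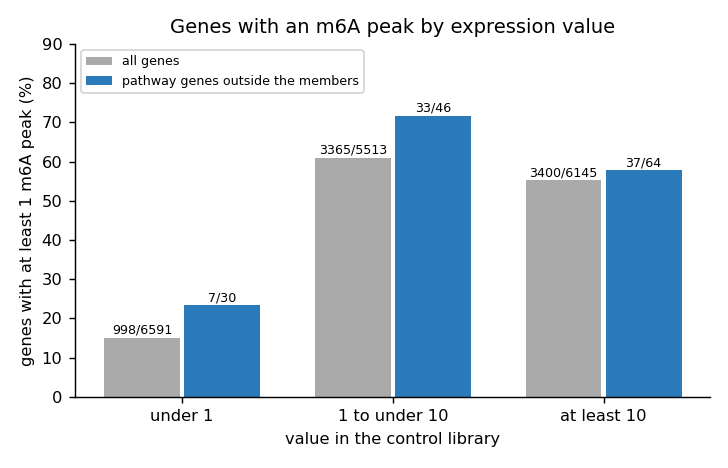
Share of genes with at least 1 m6A peak (y axis, percent) by value in the control library (x axis), for all genes of the table (grey) and pathway genes outside the 6 listed genes (blue), with counts above the bars. Shares of pathway genes were 23.3%, 71.7% and 57.8%, against 15.1%, 61% and 55.3% over all genes.

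As the series title names the Notch pathway, the upstream sequence of the members was searched for GTGGGAA, the core letters bound by the Notch effector RBPJ, on both strands. RefSeq promoter windows on GRCh38.p14 were used for the 5 genes other than NGFR (14 windows), and the 250 bases before each start were searched. NGFR was not searched. The letters were found in 2 of the 14, both upstream of starts of NTRK2, which has 4 windows, and in 5.43% of all 35116 windows. The 30 bases around each match are shown because NTRK2 was lower in both libraries, with the match in capitals, at chr9:84669220-84669249 and chr9:84701537-84701566, both on the + strand.
NTRK2 first match: ttttaggcaggGTGGGAAaggagaacgcgg
NTRK2 second match: gagggaggaggTTCCCACggagaatgcgct
The first match begins 75 bases before its start and the second, which reads on the other strand, 57 bases before its own. A match is a description of the letters and not of binding, which was not measured here.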

How the data were processed

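Alignment with TopHat2, counting with HTSeq and, for the immunoprecipitation, peak calling with MACS2 are named in the submitters' processing notes, with build hg38; their versions and settings are not stated there. The deposited expression table holds a signal per gene whose unit its header does not state. It is neither raw counts nor a complete per-million table, since its columns sum to 608290.95, 617840.36 and 627152.03. The deposited peak list gives positions and distances in bases. Only 1 of the 7 peaks of the members lies inside its gene on GRCh38, so coordinates are as listed and their build is not taken to be hg38.

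Values were transformed to log2(value + 1), which understates changes of low genes, and genes at 1 or more in at least 1 library were tested with limma 3.58.1 (R 4.3.3; moderated variances with a trend, Benjamini-Hochberg at 0.05). The fit was tested on simulated data. A table of counts had been allowed for in the plan and was not needed. Older symbols were matched to current ones in both files. Python 3.11.15, pandas 2.3.3 and matplotlib 3.10.9 were used otherwise.

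The 6 genes, the pathway lists and the marker lists were chosen with earlier results of these data known. Named genes are the 6, the other ligands and receptors (some are not reported here), the 2 highest of each further pathway list, any gene of these lists 1.5-fold different on the log2(value + 1) scale in one direction in both libraries, and the 5 genes most like NGFR. Alternatives were the pseudocount, scaling, filter, trend, single libraries and peak class.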

Additional observations from a re-analysis of the deposited data

How the results depend on the processing

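The log2 difference of NGFR, -1.20 as reported, was -1.23 with a pseudocount of 0.1 and -1.23 with equal sums, and it ranged from -1.21 to -1.18 when 1 hairpin library was left out. Genes at least 2-fold lower in both libraries numbered 12, but 35 with a pseudocount of 0.1, and 50 to 121 when only 1 hairpin library was used, since fewer conditions then apply. The pathway median of -0.053 became -0.086 with equal sums, which moved the median of all genes from 0.00 to -0.029. It was -0.099 for genes with a mean of at least 5 and -0.028 with no filter, which change the genes counted, and ranged from -0.074 to -0.035 with 1 hairpin library left out. A peak was present in 72 of 115 tested pathway genes, where the share over all genes tested was 56.6%. At least 2 peaks were present in 26, a count with no share over all genes at that threshold to set beside it. limma made 0 calls under all 7 alternatives run; with 1 hairpin library left out no test exists. Of the 5 genes most like NGFR, 3 remained with a control value of at least 5 and 4 with a pseudocount of 0.1. NTRK3 has 0 peaks when introns are left out. No paired analysis was possible because there is 1 control library and its label carries no replicate number. Depth is unknown, so the values under 1 (NTRK3 and NTF3 among them) have no stated precision.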
